A study of Mus musculus with 22 samples.

Results

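Aminoacyl-tRNA synthetases were examined in ribosome-bound and total RNA of the locus coeruleus region of mice. The genes were taken by symbol from the deposited expression table, as every symbol of the form Aars, Aars2 and so on together with Eprs, Farsa and Farsb. This gave 37 of the 12596 genes in the table, of which 20 encode cytosolic enzymes and 17, with symbols ending in 2, encode mitochondrial enzymes. The table writes older symbols. The animals were 11 mice on a C57Bl/6 background from a cross of Th-cre with Slc6a2-eGFP/Rpl10a. The second transgene drives a tagged ribosomal protein from the promoter of the noradrenaline transporter, so that ribosomes of noradrenergic cells can be immunoprecipitated. Per the labels 5 mice received hTyr, the human pigment enzyme tyrosinase, and 6 received EYFP, a yellow fluorescent protein, as control. All 11 carried the same transgenes. Their ages and sexes are not given in the sources used here. From every mouse the precipitated ribosomes (IP) and the RNA before precipitation (input, labelled total hindbrain) were sequenced, so that the groups are hTyr IP and hTyr input (n = 5 each) and EYFP IP and EYFP input (n = 6 each).

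Aminoacyl-tRNA synthetases attach each amino acid to its transfer RNA and so supply the ribosome. Animal cells use 1 set of enzymes in the cytosol and another, also encoded in the nucleus, for the translation system inside mitochondria. Gars and Kars each encode both forms from a single gene, Eprs joins the enzymes for glutamate and proline in a single protein, and Farsa and Farsb are the 2 subunits of the phenylalanine enzyme. Mitochondria have no glutamine enzyme of their own and charge that transfer RNA by an indirect route. Many cytosolic enzymes are known targets of ATF4, the transcription factor of the integrated stress response, which is translated when amino acids run short or proteins misfold.

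Depth came to between 12654489 and 25100142 reads in the table per library, and the least covered enzyme in any library had 72 reads (the most covered 8183). The deposited values are log2 CPM, reads scaled to the size of the library, and all levels and differences below are on that log2 scale unless CPM per kilobase is named. The labelled cell type was checked against its markers. All 7 noradrenergic markers (Th, Dbh and Slc6a2 among them) were higher in IP than in input, with a median difference of 3.10 in EYFP animals and 3.22 in hTyr animals. Markers of other cells were still present in IP. The mean level of 6 oligodendrocyte markers in EYFP IP ranged from 9.22 to 9.57, against 9.29 to 9.66 in EYFP input.

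Cytosolic enzymes were the more abundant class in IP. Per kilobase of exon, levels in EYFP IP ran from 0.722 CPM per kilobase for Mars2, the mitochondrial methionine enzyme, to 117 CPM per kilobase for Nars, the cytosolic asparagine enzyme. Behind Nars came Sars (serine) and Gars (glycine, 93.9 CPM per kilobase), then Hars (histidine, 78.4) and Kars (lysine, 58.4), while Lars (leucine, 9.45), Vars (valine, 10.1) and Tars (threonine, 10.1) were the lowest cytosolic enzymes. Sars and Gars stood next to each other within their spread between animals, with SDs of 0.16 and 0.29 on the log2 scale (n = 6). Vars and Tars did so too, with SDs of 0.18 and 0.22. Besides Lars2 (leucine, 40.5 CPM per kilobase), the highest mitochondrial enzymes were Aars2 (alanine, 10.6) and Rars2 (arginine, 9.96), and the lowest after Mars2 were Wars2 (tryptophan, 1.29) and Pars2 (proline, 2.55). The place of Mars2 rests on its length, 11.3 kilobases of exon against a median of 3.35 for mitochondrial enzymes. Before division by length its log2 level, 3.03, was above those of Wars2 (2.505) and Pars2 (2.96).

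Enzymes for the same amino acid were set side by side in 18 cytosolic and mitochondrial pairs, in which Eprs and Fars2 each appear in 2 pairs. The cytosolic enzyme was higher per kilobase in 17 of the 18, with a median log2 ratio of 2.02, or 4.05-fold. The ratio was widest for tryptophan (5.45, Wars over Wars2) and narrowest among these 17 for threonine (0.51). Leucine was the exception, with Lars below Lars2 by a log2 ratio of -2.10. The level of Lars2 followed that of a non-coding RNA, LOC101056014, across libraries, as described below. Whether all reads counted for Lars2 came from its mRNA was not tested.

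**Figure D1:**
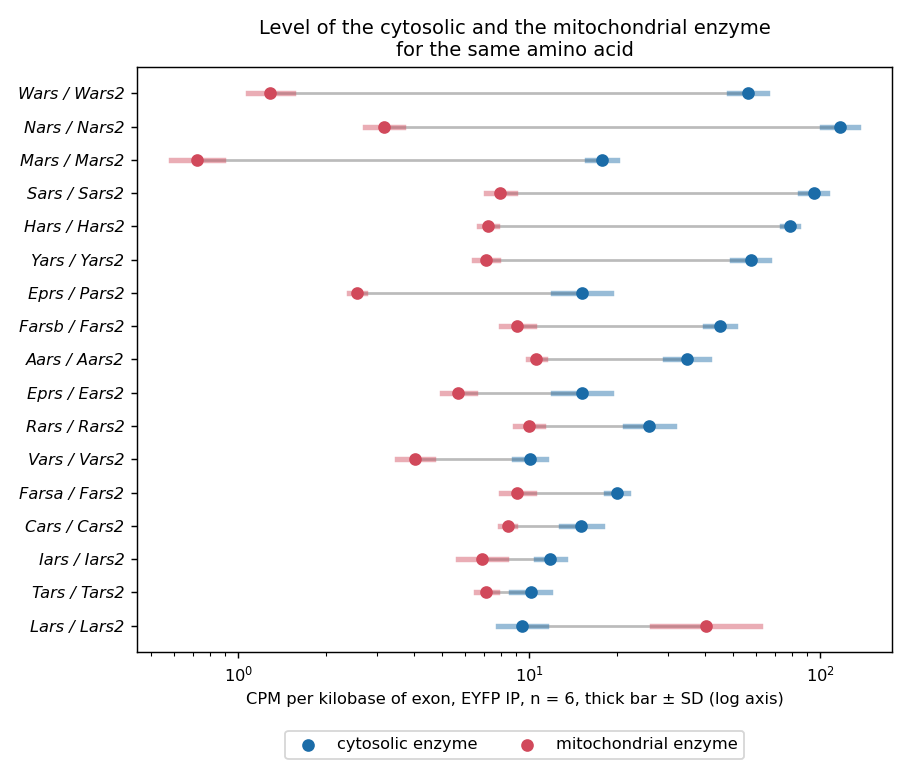
Level of the cytosolic (blue) and the mitochondrial (red) enzyme of 17 pairs in CPM per kilobase of exon on a log axis, as the mean of 6 EYFP IP libraries with a thick bar for the SD between animals. The 16 upper pairs have the cytosolic enzyme to the right, and Lars and Lars2 at the bottom are the other way round.

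IP against input asks how each transcript in the tagged ribosomes compared with the dissected tissue. Of the 37 enzymes 24 were higher in IP in EYFP animals and 0 lower (adjusted p under 0.05, limma with Benjamini-Hochberg adjustment over all genes), while 28.5% of all genes were higher and 28.1% lower. Before adjustment 1 enzyme, Wars2, was lower at p under 0.05. It passed as lower in 6 of 16 alternatives, the replicate block among them (-0.29, adjusted p = 0.0416), and voom without the block called 0 lower. In hTyr animals 25 of 37 were higher and 0 lower, also before adjustment, where the shares of all genes were 27.4% and 27%. The cytosolic class made up most of this. It had 18 of 20 enzymes higher in EYFP animals and 19 of 20 in hTyr animals, with median differences of 0.46 and 0.53, where the median of all genes was -0.03 and -0.04. In bulk RNA a change in the share of a cell type and a change in RNA per cell cannot be told apart.

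Eprs, the fused glutamate and proline enzyme (GRCm38 chr1:185363044-185428360), was among the enzymes with the largest differences. Its EYFP levels had a lowest, median and highest of 5.69, 6.17 and 6.66 in IP and 4.66, 5.08 and 5.40 in input. In hTyr IP they were 6.25, 6.17, 6.10, 6.30 and 6.44 (IP_501, IP_502, IP_508, IP_509 and IP_510), against 4.56, 4.81, 4.86, 4.99 and 5.16 in input, in the same order of animals. The groups did not overlap in either treatment, and Eprs rose by 1.15 (SE 0.14, adjusted p = 7.17e-06), or 2.22-fold, in EYFP and 1.38 (SE 0.11, adjusted p = 4.50e-08), or 2.59-fold, in hTyr animals.

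Lars, Tars and Gars, the cytosolic leucine, threonine and glycine enzymes, were likewise higher in every IP library than in any input library of their treatment. Lars rose by 0.95 (SE 0.12, adjusted p = 7.95e-06) in EYFP and 1.10 (SE 0.12, adjusted p = 1.32e-06) in hTyr animals. Tars rose by 0.94 (SE 0.10, adjusted p = 2.43e-06) and 0.98 (SE 0.11, adjusted p = 2.46e-06). Gars rose by 0.84 (SE 0.11, adjusted p = 1.52e-05) and 1.00 (SE 0.10, adjusted p = 2.83e-07). Rars, the arginine enzyme, rose by 0.57 in EYFP and 0.86 in hTyr animals, with a difference between the treatments of 0.29 (SE 0.14, adjusted p = 0.996). The remaining cytosolic enzymes past the threshold in EYFP animals (Aars, Cars, Farsa, Farsb, Hars, Iars, Mars, Nars, Sars, Vars, Wars and Yars) rose by 0.30 (Iars) to 0.61 (Aars).

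Kars and Qars, the lysine and glutamine enzymes, were the 2 cytosolic enzymes that did not pass in EYFP animals. Kars ranged from 6.89 to 7.12 in EYFP IP and from 6.96 to 7.02 in input, with a difference of 0.05 (95% interval -0.07 to 0.16). In hTyr animals it differed by 0.04 (interval -0.12 to 0.20). The interval leaves out the difference seen for Eprs, which sits in the same complex. Qars differed by 0.18 (adjusted p = 0.0521) in EYFP and by 0.23 (adjusted p = 0.0426) in hTyr animals. In EYFP animals Qars passed in 7 of 17 alternatives and Kars in 0 of 17. The hTyr calls of Qars and Vars (0.28, adjusted p = 0.0461) rested on the settings and passed in 9 and 8 of 16 alternatives.

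**Figure D2:**
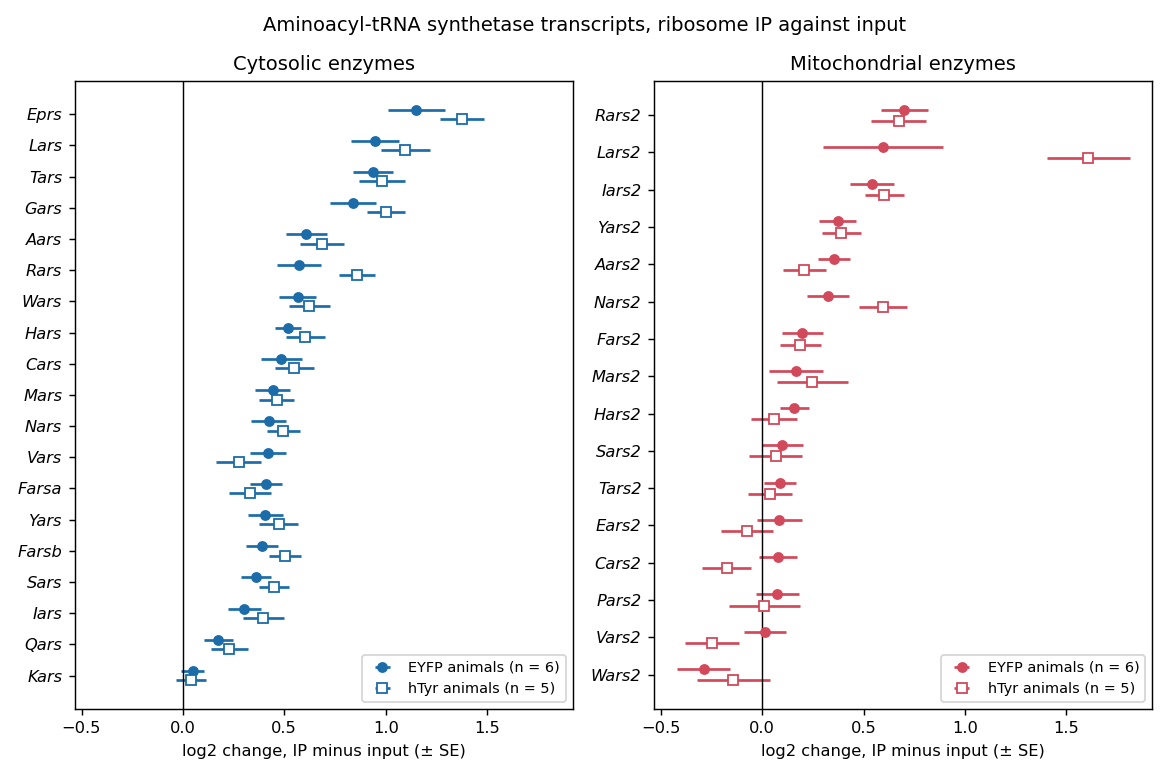
Difference between IP and input on the log2 scale for 19 cytosolic (left) and 16 mitochondrial (right) enzymes, with the SE, in EYFP animals (filled circles) and hTyr animals (open squares). Eprs, Lars, Tars and Gars lie farthest to the right among the cytosolic enzymes shown, Kars lies near 0, and Lars2 is the enzyme shown whose 2 treatments lie farthest apart (0.60 and 1.61).

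Several cytosolic enzymes are bound into the multisynthetase complex. Of its 8 enzymes (among them Eprs, Iars, Kars, Lars, Mars, Qars and Rars), 6 were higher in IP in EYFP and 7 in hTyr animals. Their median differences were 0.51 and 0.66. In the whole cytosolic class 18 and 19 of 20 were higher, and of all genes 28.5% and 27.4%. The complex is held by 3 scaffold proteins, of which Aimp1 (0.21 and 0.27) and Aimp2 (0.32 and 0.32) passed in EYFP and hTyr animals, while Eef1e1 (0.15 and 0.07) did not. Among 5 proofreading and related enzymes, 3 were higher in both treatments. Tarsl2, a second cytosolic threonine enzyme whose symbol falls outside the pattern, rose by 0.97 (SE 0.11, adjusted p = 3.59e-06) and 1.12 (SE 0.11, adjusted p = 5.50e-07), close to the values of Tars.

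Mitochondrial enzymes passed less widely, with median differences of 0.17 in EYFP and 0.19 in hTyr animals. In each treatment 6 of 17 (35.3%) passed as higher and none as lower. Of all genes 28.5% were higher and 28.1% lower in EYFP animals, and 27.4% and 27% in hTyr animals. The share of mitochondrial enzymes that were higher was thus near that of all genes. Rars2, Iars2, Nars2 and Yars2, the mitochondrial enzymes for arginine, isoleucine, asparagine and tyrosine, passed in both treatments. Aars2 passed in EYFP animals (0.35, adjusted p = 0.000984, against 0.21, adjusted p = 0.108, in hTyr animals), and Lars2 in hTyr animals. Rars2 had a lowest, median and highest level of 4.01, 4.19 and 4.41 in EYFP IP and 3.26, 3.50 and 3.79 in input. In hTyr IP its levels were 4.29, 4.19, 3.69, 4.34 and 4.28, against 3.29, 3.60, 3.63, 3.43 and 3.46 in input, in the order given for Eprs. Groups did not overlap, and Rars2 rose by 0.70 (SE 0.12, adjusted p = 9.54e-05) and 0.67 (SE 0.14, adjusted p = 0.000543).

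The other mitochondrial enzymes did not pass. Wars2 was at -0.29 (adjusted p = 0.0719) in EYFP and -0.14 in hTyr animals, and Vars2, the valine enzyme, at 0.01 and -0.25 (adjusted p = 0.128). Cars2, Ears2, Pars2, Sars2 and Tars2 stayed between -0.18 and 0.10 over both treatments. The indirect route to glutamine in mitochondria was split. Gatb and Qrsl1, the transfer RNA binding and the catalytic subunit of the amidotransferase, rose by 0.40 and 0.42 in EYFP animals and by 0.49 and 0.43 in hTyr animals. Gatc, its small subunit, fell by 0.67 (adjusted p = 1.91e-05) and 0.49 (adjusted p = 0.000146).

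Class means per animal gave the contrast between the compartments. The cytosolic mean was higher in IP than in input of the same animal by 0.57 ± 0.17 in EYFP (SD, n = 6; range 0.30 to 0.72) and by 0.64 ± 0.05 in hTyr animals (SD, n = 5; range 0.60 to 0.71). The mitochondrial mean was higher by 0.26 ± 0.12 (range 0.13 to 0.43) and 0.28 ± 0.07 (range 0.17 to 0.35). In all 11 animals the cytosolic difference was the larger, and the lowest cytosolic value was that of IP_505, an EYFP animal. The difference between the class medians in EYFP animals, 0.30, was 0.11 with the upper 75% of genes. That filter kept all 20 cytosolic and 11 of the 17 mitochondrial enzymes. In hTyr animals the difference, 0.34, was 0.19 with the covariate LOC101056014 (a gene described with Lars2), where 10 of 20 cytosolic enzymes passed. Between 18 and 20 of the 20 cytosolic enzymes were higher in IP within an animal, and between 9 and 15 of the 17 mitochondrial enzymes, where 47.1% to 49.8% of all genes were. By amino acid, the cytosolic enzyme had the larger difference in 16 of 18 pairs in EYFP and 15 of 18 in hTyr animals. The exceptions in EYFP animals were isoleucine (0.30 for Iars, 0.54 for Iars2) and arginine (0.57 for Rars, 0.70 for Rars2).

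**Figure D3:**
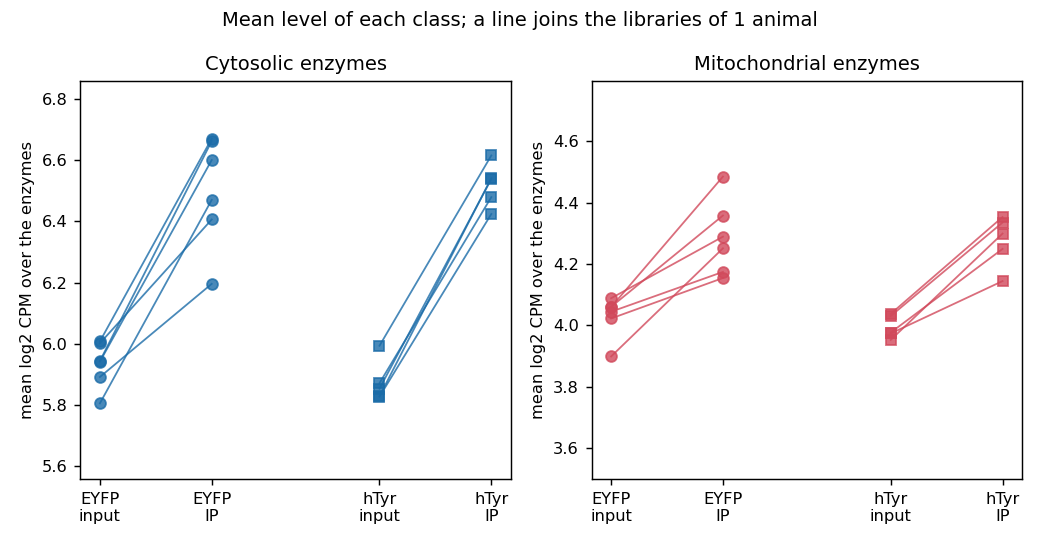
Mean log2 CPM over the 20 cytosolic (left) and 17 mitochondrial (right) enzymes in each library, with a line from input to IP of the same animal (circles EYFP, n = 6; squares hTyr, n = 5). All lines rise, and the cytosolic lines rise more, with that of IP_505 the least steep at 0.30.

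Markers of several cell types also differed between IP and input, as did 28.5% (higher) and 28.1% (lower) of all genes in EYFP animals. In hTyr animals these shares were 27.4% and 27%. Besides the noradrenergic markers, 3 of 6 astrocyte markers were higher in IP in EYFP and 4 of 6 in hTyr animals (median differences 0.34 and 0.52), with a mean level of the 6 between 6.96 and 7.66 in EYFP IP and between 6.93 and 7.19 in EYFP input. Of the serotonergic and of the cholinergic markers, 2 of 3 each were higher in both treatments, while the serotonergic marker Fev was lower in EYFP animals (-0.55, adjusted p = 0.037). Oligodendrocyte markers were split, with 1 higher and 3 lower of 6 in EYFP animals. The part of these cell types in the differences of the enzymes was not tested. GC content had a Spearman's rho of -0.28 with the difference over the 37 enzymes in EYFP animals (-0.34 over all genes), a description across genes, which are not independent. With length and GC trends removed and the animal as a replicate block, 10 of 17 mitochondrial enzymes were higher and 2 lower (Wars2 and Mars2) in EYFP animals, and 9 were higher and 1 lower (Mars2) in hTyr animals. In that fit 19 of 20 cytosolic enzymes were higher in each treatment. Mars2 was at -0.31 (adjusted p = 0.0227) and -0.42 (adjusted p = 0.0147) there, against 0.17 and 0.25 without the correction.

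The comparison of hTyr with EYFP within IP addresses the effect of the enzyme on RNA bound to the tagged ribosomes. None of the 37 enzymes passed the threshold, where 7 of all genes (0.0556%) did. Before adjustment 2 of 37, Lars2 and Nars2, were under 0.05, against 6.19% of all genes. With voom on the recovered reads 0 of 37 passed as well. No enzyme had hTyr and EYFP groups that did not overlap, a pattern seen for 0.389% of all genes in the higher and 0.262% in the lower direction. Cytosolic changes had a median of 0.03 and ran from -0.24 (Vars) to 0.14 (Rars), and mitochondrial changes had a median of -0.06. The mean level of the 7 noradrenergic markers was 6.40 ± 0.68 in hTyr IP (SD, n = 5) and 6.01 ± 0.44 in EYFP IP (SD, n = 6). With this mean as a covariate 0 of 37 passed, as without it. That count cannot show the part of the markers in these values, which was not tested.

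The 12 enzymes listed as ATF4 targets (Aars, Cars, Eprs, Gars, Iars, Lars, Mars, Nars, Sars, Tars, Wars and Yars) stayed close to 0. None passed, none had an unadjusted p under 0.05, and the changes ran from -0.07 (Mars) to 0.12 (Sars) around a median of 0.04. Their 95% intervals lay between -0.29 (Tars) and 0.36 (Gars), so that the highest bound was a 1.285-fold rise. Gars stood at 7.79, 7.89, 7.81, 8.09 and 7.97 in hTyr IP (IP_501, IP_502, IP_508, IP_509 and IP_510) and at a lowest, median and highest of 7.31, 7.92 and 8.04 in EYFP IP. Sars stood at 8.60, 8.60, 8.45, 8.58 and 8.55, against 8.16, 8.46 and 8.62. For Aars the hTyr levels were 7.67, 7.84, 7.39, 7.55 and 7.93, against 7.25, 7.72 and 7.92. In each of these the groups overlapped.

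Other ATF4 targets behaved unevenly in the same libraries. Of the 25 listed genes 2 passed, both higher in hTyr IP, where 0.0556% of all genes passed. These were Atf3, a stress-induced transcription factor (1.54, SE 0.25, adjusted p = 0.0287), and Ddit3, which encodes CHOP (1.14, SE 0.19, adjusted p = 0.0287). Before adjustment 7 of 25 were under 0.05, against 6.19% of all genes. Besides Atf3 and Ddit3 these were Ppp1r15a (0.71), Chac1 (0.66), Sesn2 (0.64), Slc7a5 (0.37) and Mthfd2 (0.31), with adjusted p from 0.415 to 0.787. Genes of amino acid supply on the list did not pass either. Asns (asparagine synthesis) was at 0.08, Psat1 (serine synthesis) at 0.09 and Slc7a11 (cystine transport) at -0.09. Slc7a5, for the transport of large neutral amino acids, had an adjusted p of 0.787. The median over the 25 was 0.08. Whether the synthetases differed from Atf3 and Ddit3 was not tested.

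**Figure D4:**
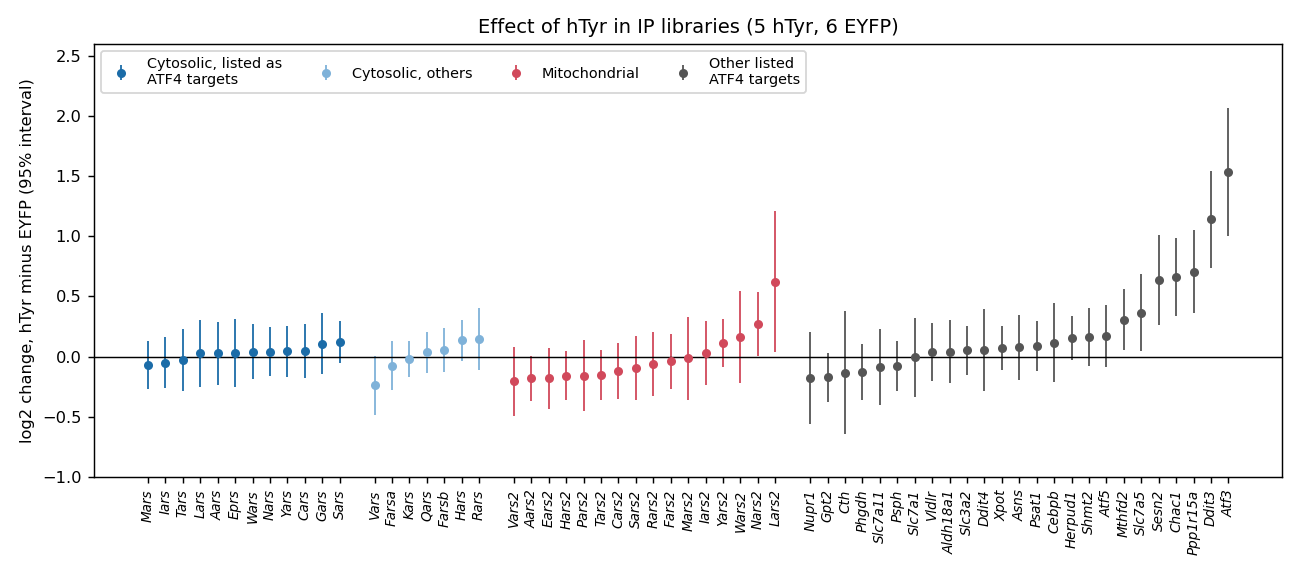
Difference between hTyr (n = 5) and EYFP (n = 6) IP libraries on the log2 scale with its 95% interval, for cytosolic enzymes listed as ATF4 targets, other cytosolic enzymes, mitochondrial enzymes and other listed ATF4 targets. The enzymes shown lie around 0, with Lars2 (0.62) as the highest, while Ddit3 (1.14) and Atf3 (1.54) stand at the far right.

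Mars and Ddit3 are neighbours on opposite strands of chromosome 10 and share 68 exonic bases (GRCm38 chr10:127296221-127296288). Whether the counting used strand is not given in the sources used here, so reads in that stretch cannot be told apart. Mars was at -0.07 (SE 0.09) in the comparison in which Ddit3 rose. Hars and Hars2 share 195 exonic bases in the same way and carry the same limit.

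Promoters were searched for the element to which ATF4 binds with a C/EBP partner, written TGATGNAA, on both strands of the stretch (250 bases before and 50 after the start) that RefSeq's table for GRCm38.p6 gives. The table held 27 of the 37 enzymes. The motif lay in 3.97% of all 32851 promoters, counted singly. Enzymes and listed targets were counted once per gene, over every promoter given for it, so the units differ. A promoter with the motif was found for 5 of 13 cytosolic genes (38.5%) and 0 of 14 mitochondrial ones. All 5 (Aars, Gars, Iars, Tars and Yars) are listed as ATF4 targets, a list that may itself rest in part on such elements. Among the other listed targets 7 of 23 genes had such a promoter (30.4%), Atf3 and Chac1 included and Ddit3 not. The windows below show 1 match of each of these enzymes beside those of Atf3, which passed in hTyr IP, and Chac1, which did not (adjusted p = 0.415). Capitals mark the match, read on the gene's strand.
Aars, first base at 10: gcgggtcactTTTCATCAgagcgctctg
Gars, first base at -30: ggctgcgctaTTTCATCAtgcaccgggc
Iars, first base at 8: actgtcagtaTTGCATCAcctccagacg
Tars, first base at -15: aggagtcccgTTGCATCAgctggttagc
Yars, first base at 4: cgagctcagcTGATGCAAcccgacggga
Atf3, first base at -110: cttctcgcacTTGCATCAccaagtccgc
Chac1, first base at -193: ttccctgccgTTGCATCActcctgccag

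Upstream sequence is shown in full for Tars and Gars, which have the motif closest before the start and are among the enzymes with the largest difference between IP and input. Each run covers the 250 bases before the start (chr15:11399659-11399908, minus strand, and chr6:55037751-55038000, plus strand), 5′ to 3′ on the gene's strand, with the match in capitals.
Tars: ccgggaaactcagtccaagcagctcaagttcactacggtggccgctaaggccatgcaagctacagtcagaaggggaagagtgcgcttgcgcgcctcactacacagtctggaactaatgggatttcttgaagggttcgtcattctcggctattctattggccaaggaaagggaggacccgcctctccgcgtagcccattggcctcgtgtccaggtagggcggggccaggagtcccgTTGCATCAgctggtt
Gars: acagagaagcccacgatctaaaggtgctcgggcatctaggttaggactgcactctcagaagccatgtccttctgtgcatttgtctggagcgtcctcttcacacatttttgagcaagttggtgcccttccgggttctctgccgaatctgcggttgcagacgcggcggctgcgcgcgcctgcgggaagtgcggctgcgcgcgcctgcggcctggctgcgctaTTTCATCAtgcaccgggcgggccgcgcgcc

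A match of letters is a description of these windows, and binding was not measured. In IP, Tars changed by -0.03 (95% interval -0.29 to 0.23) with hTyr, and Iars, with the same 8 letters, by -0.05 (-0.26 to 0.16). Atf3, whose window has those letters too, rose by 1.54 (1.01 to 2.07).

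Among mitochondrial enzymes in IP, Nars2 and Lars2 had the largest differences between treatments. Nars2, the asparagine enzyme, stood at 4.06, 3.82, 4.06, 3.83 and 4.18 in hTyr IP and at a lowest, median and highest of 3.39, 3.71 and 3.96 in EYFP IP. The groups overlapped, with a change of 0.27 (SE 0.13, adjusted p = 0.803). Vars, the cytosolic valine enzyme, stood at 4.84, 5.18, 5.01, 5.18 and 5.49, against 5.18, 5.37 and 5.65, a change of -0.24 (SE 0.12, adjusted p = 0.803). Aars2 stood at 4.97, 5.02, 4.98, 5.10 and 4.76, against 4.99, 5.18 and 5.24, and changed by -0.18 (SE 0.09, adjusted p = 0.803). Hars2 stood at 4.35, 4.42, 4.66, 4.25 and 4.47, against 4.46, 4.62 and 4.70, and changed by -0.16 (SE 0.10, adjusted p = 0.837). These 3 leaned lower in hTyr IP, and each overlapped the controls.

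Lars2, the mitochondrial leucine enzyme (chr9:123366927-123462666), varied more between animals than the other enzymes in 3 of the 4 groups, with SDs of 0.59 to 0.68. In hTyr input its SD was 0.22, below that of Mars2 (0.30). In hTyr IP it stood at 8.60, 8.35, 7.13, 7.58 and 7.97 (IP_501, IP_502, IP_508, IP_509 and IP_510). In EYFP IP the lowest level was 6.77 and the median 7.12, with IP_506 apart at 8.52. In EYFP input the median was 6.42 and the highest level 7.89 (Pre_512), and in hTyr input the levels were 6.20, 6.57, 6.34, 6.00 and 6.46. High levels thus occurred in libraries of 3 groups. The change with hTyr in IP was 0.62 (SE 0.28, adjusted p = 0.791), 0.87 (adjusted p = 0.643) without the animal of IP_506 and 0.45 (adjusted p = 0.989) without that of IP_501. With the noradrenergic markers as covariate it was 0.40 (adjusted p = 0.999).

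The IP against input difference of Lars2 was 1.61 (SE 0.20, adjusted p = 6.35e-06) in hTyr and 0.60 (SE 0.30, adjusted p = 0.0947) in EYFP animals. Without the animal of Pre_512 the EYFP value was 0.88 (adjusted p = 0.0149) and without that of IP_506 it was 0.27 (adjusted p = 0.399). With the animal as a replicate block it passed as well (0.60, adjusted p = 0.0288). The difference between the treatments, 1.01 (SE 0.41), did not pass over all genes (adjusted p = 0.996).

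Of all genes in the table, the level of LOC101056014 was the most like that of Lars2, both over the IP libraries and over the input libraries. RefSeq names it AY036118, a long non-coding RNA on chromosome 17, and as background it is annotated next to ribosomal RNA sequence. Pearson's r was 0.979 and Spearman's rho 0.964 over the 11 IP libraries, and 0.915 and 0.836 over the 11 input libraries. Without the 2 libraries farthest from the median, r was 0.957 and 0.780 (n = 9). No p is given, since the gene was chosen for its likeness after the values were seen. The other 36 enzymes had r with it between -0.43 and 0.80 in IP and between -0.55 and 0.58 in input.

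LOC101056014 was itself at 0.71 for hTyr against EYFP in IP (SE 0.27, adjusted p = 0.773) and took between 0.0761% and 0.408% of a library's reads. It was higher in IP than in input by 0.99 (SE 0.19, adjusted p = 0.000321) in hTyr animals. In EYFP animals it differed by 0.11 (SE 0.35, adjusted p = 0.810). The difference between the treatments, 0.885 (SE 0.46), did not pass (adjusted p = 0.996). Lars2 minus LOC101056014 had an SD of 0.14 over the IP libraries, where Lars2 alone had 0.66. With that level as a covariate, chosen after the data were seen, the hTyr change of Lars2 in IP turned to -0.09 (SE 0.11). The rise of Lars2 in IP over input was then 0.57 (adjusted p = 0.0168) in hTyr and 0.51 (adjusted p = 0.000545) in EYFP animals. What the 2 levels share was not tested, nor whether all reads counted for Lars2 came from its mRNA.

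**Figure D5:**
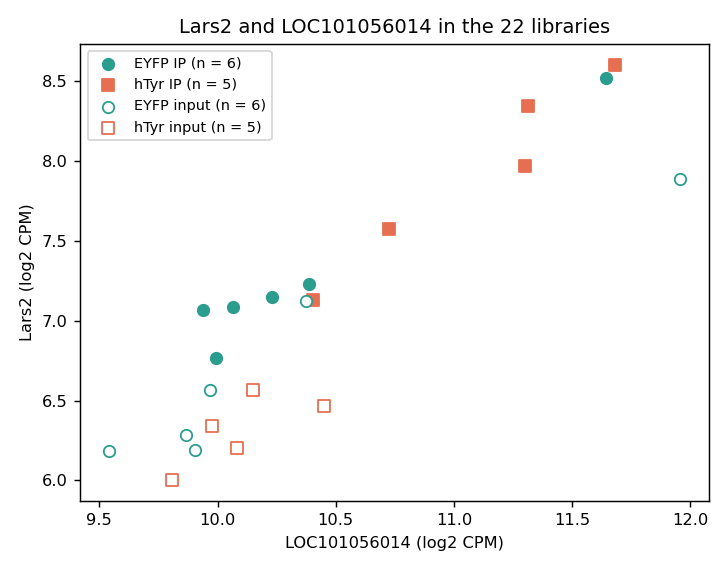
Level of Lars2 against that of LOC101056014 (both log2 CPM) in each of the 22 libraries, IP filled and input open, EYFP as circles and hTyr as squares. Points rise together from lower left to upper right within IP and within input, with IP_506 of the EYFP group among the hTyr IP libraries and Pre_512, an EYFP input, at the far right.

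In input, hTyr and EYFP animals were compared in the same way. None of the 37 enzymes passed, and before adjustment 0 were under 0.05, against 0.00794% and 3.03% of all genes, and with voom 0 passed too. The single gene past the threshold was Slc6a2, the noradrenaline transporter, at -0.91 (SE 0.13, adjusted p = 0.0339). No enzyme had groups that did not overlap (0.0953% of all genes in the higher and 0.0794% in the lower direction). Of the 20 cytosolic enzymes 17 had a value below 0, as did 53.6% of all genes, with a median of -0.05, and all 8 enzymes of the multisynthetase complex were below 0, from -0.19 (Eprs) to -0.01 (Kars). Rars was at -0.145 (SE 0.07), Iars at -0.143 (SE 0.08) and Eprs at -0.19 (SE 0.12), all with an adjusted p of 0.990. Lars2 was at -0.39 (SE 0.25), or -0.15 without the animal of Pre_512, and Cars2, the cysteine enzyme, at 0.135 (SE 0.10), also with an adjusted p of 0.990. In each of these genes the groups overlapped.

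The interaction, the hTyr effect in IP minus that in input, passed for 0 of 37 enzymes (0 with voom on the recovered reads), against 0.00794% of all genes. Before adjustment 1 of 37, Lars2, was under 0.05, against 3.31% of all genes. Cytosolic enzymes had a median of 0.075 and mitochondrial enzymes one of -0.03. Above 0 were 17 of 20 cytosolic and 6 of 17 mitochondrial enzymes, and 50.7% of all genes. All 12 enzymes listed as ATF4 targets were above 0 (0.02 to 0.22), with 0 under 0.05 before adjustment. Genes are not independent, and this shared direction was not tested. The values next to Lars2 were those of Rars (0.29, SE 0.14), Nars2 (0.27, SE 0.15), Vars2 (-0.26, SE 0.17) and Cars2 (-0.25, SE 0.14), each with an adjusted p of 0.996.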

How the data were processed

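The values are log2 CPM as the authors deposited them, filtered to 12596 genes in 22 libraries. Per the submitters' processing notes STAR, featureCounts and mm10 were used, with versions and settings not given in the sources used here. Whole reads were recovered for 100% of values (within 0.05 of a read, after taking off a pseudocount averaging 2 reads), which gave the depths.

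Each comparison was fitted across all genes with limma 3.58.1 (R 4.3.3, variance trend) on these log2 values, Benjamini-Hochberg adjusted, with a threshold of 0.05. The code was tested on simulated data. Same-numbered IP and input libraries came from the same animal, and their deviations from the group averages went together (mean Pearson's r 0.448, lowest 0.279, highest 0.626). The replicate block was an alternative. Nothing in the labels gives a sequencing batch. Exon lengths, coordinates and GC content came from GENCODE M21 (GRCm38) and covered 98.3% of genes. Full statistics are given for up to 5 members past the threshold with the largest difference in each direction, or for the 5 with the smallest p where fewer passed. Some members, markers and sequences count in the totals but are not reported here by name. Members and lists were chosen with earlier results of these data known. Alternatives were quantile normalization, median centring, a filter to the upper 75% of genes, 5 CPM added before logs, no variance trend, voom, length and GC correction, covariates (total reads, noradrenergic markers) and leaving out each animal. The LOC101056014 covariate and voom with the replicate block were added after the data were seen. Figures used Python 3.11.15 and matplotlib 3.10.9.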

Additional observations from a re-analysis of the deposited data

Results flagged for a closer look

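Single libraries far from the rest of their group were sought among 14 members and the 2 class means, in 64 groups of 5 or 6 libraries, where chance gives about 3.2. There were 6, and their causes were not tested. Lars2 in EYFP IP was at 8.52 in IP_506 where the next library was at 7.23. Tars in hTyr input was at 4.55 in Pre_510 (next 4.31), and the cytosolic class mean in the same library was at 5.99 (next 5.87). Aars2 in EYFP input was at 4.535 in Pre_507 (next 4.76), and the mitochondrial class mean in the same library was at 3.90 (next 4.02). Hars2 in EYFP input was at 4.32 in Pre_511 (next 4.44).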

How the results depend on the processing

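Recomputed counts past the threshold and class medians were set against those given above. In 294 they stayed within 1.5 times in the same direction, or within the spread between animals, and in 7 they moved further. Of other single values 724 stayed so, 50 moved and 1 reversed. Class medians near 0 could change sign without 1 animal. The cytosolic median for hTyr against EYFP in IP lay between -0.04 and 0.072. The mitochondrial median lay between -0.06 and 0.001 in input, and between -0.07 and 0.008 in the interaction. Members past the threshold for hTyr against EYFP and for the interaction numbered 0 under every alternative run. With the replicate block, 19 cytosolic and 8 mitochondrial members passed in EYFP animals (1 of them, Wars2, lower) and 19 and 6 in hTyr animals, and the interaction stayed at 0. With the replicate block and length and GC trends removed, 12 mitochondrial members passed in EYFP (2 lower) and 10 in hTyr animals (1 lower), against 6 each, all higher, without either. Vars2 was lower (-0.37) in hTyr animals without the animal of IP_510. The cytosolic minus mitochondrial median of IP against input in EYFP animals fell from 0.30 to 0.11 with the upper 75% of genes. That filter leaves 31 members, all 20 cytosolic and 11 of the 17 mitochondrial ones, so the mitochondrial median is over fewer genes. In input, that median for hTyr against EYFP moved from -0.03 (-0.025) to 0.03 with the noradrenergic covariate and lay between -0.098 (without the hTyr animal of Pre_510) and -0.007 without 1 animal. With the LOC101056014 covariate, 10 cytosolic members passed in hTyr animals (class difference 0.187), and Lars2 in hTyr IP reversed to -0.09 (-0.088). The cause of these moves was not tested. All genes past the threshold in hTyr IP numbered 3 to 11 without 1 animal (7 with all), 3 with total reads and 0 with the LOC101056014 covariate. In input they numbered 0 to 2 (1 with all), and in the interaction 0 to 5 (1 with all, 5 with the replicate block). Without length correction, the median level difference between the classes in EYFP IP was 2.06 (2.04 per kilobase). Median centring moved the median of all genes to -0.08 in EYFP and -0.11 in hTyr animals for IP against input and left 24 members higher and 1 lower, and 23 higher and 0 lower.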
